A study of Mus musculus with 18 samples.

Results

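MHC class II antigen presentation was followed through 8 genes, H2-Aa, H2-Ab1, H2-Eb1, Cd74, Ciita, H2-DMa, H2-DMb1 and Ctss, chosen by symbol from the 55450 genes of the count table. Each of the 8 symbols matched 1 gene, and all 8 were among the 19186 genes with enough counts to be tested. RNA was sequenced from 15 mouse mammary tumors and 3 normal mammary glands, 1 library per mouse. The glands came from wild type mice, and every mouse was a female of the C57Bl/6 strain.

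B1/P/Rbf tumors (n = 5) carried Brca1fl/fl, Trp53fl/fl and the TgK18GT121 transgene. B1/P tumors (n = 5) carried Brca1fl/fl and Trp53fl/fl alone, and P/Rbf tumors (n = 5) carried Trp53fl/fl with the transgene and kept Brca1. Floxed Trp53 was thus common to the 3 tumor groups and absent from the normal glands (n = 3). Recombination was started in adult females by an adenovirus with Cre behind the CMV promoter, given through the nipple into 1 gland, so that the route and not a cell type promoter decided which cells received Cre. The transgene, opened by Cre and driven by the keratin 18 promoter, makes T121, a fragment of SV40 large T antigen that inactivates pRb, p107 and p130 in epithelium. Loss of Brca1 was partial by RT-qPCR in B1/P/Rbf tumor 208863, which was kept in its labelled group. Whether the normal glands had been injected is not given in the sources used here. The libraries hold RNA of whole tissue, with tumor cells, stroma and immune cells together.

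MHC class II molecules are cell surface dimers of an α and a β chain that show peptides from engulfed or internal vesicles to CD4+ T cells. They are made chiefly by dendritic cells, B cells and activated macrophages, and other cells, epithelium included, can be induced to make them by interferon gamma. The invariant chain Cd74 fills the groove of the new dimer, proteases such as cathepsin S (Ctss) trim it, and H2-DM (H2-DMa with an H2-DMb chain) exchanges the remaining fragment for peptide. Transcription of the chains, of Cd74 and of H2-DM depends on the co-activator Ciita, which is brought to promoters by RFX, CREB and NF-Y bound at the X and Y boxes.

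Total expected counts ran from 27661173 to 37794889 per library. Levels are given as CPM, the counts scaled to a common library total, after TMM scaling, whose factors were 0.788 to 0.858 in glands and 0.952 to 1.115 in tumors. Brca1 lay at 21.1 to 45.0 CPM in B1/P/Rbf tumors, 8.13 to 27.9 in B1/P tumors and 44.9 to 116 in P/Rbf tumors, against 4.61 to 5.99 in glands. Trp53 lay at 6.75 to 24.3 CPM over all tumors and at 54.4 to 71.8 in glands. Counts of a whole gene do not separate deleted exons from the rest, so these levels check the labels only in part. Ccl21a, a chemokine of lymph node stroma, lay at 192 to 281 CPM in the glands and at no more than 7.91 CPM in any tumor. The 5 B1/P/Rbf tumors, with 225068, 225070 and 246361 of the B1/P group, form 1 of 2 sets of libraries that an earlier analysis of these data had inferred and that the labels do not name. Only B1/P tumors are in both sets, so a fit with a term for the set rests on those 5 tumors, and B1/P/Rbf tumors cannot be compared with P/Rbf tumors or glands within a set.

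Promoter sequence was examined because the class II genes share a known promoter layout. RefSeq windows on GRCm38.p6, from 250 bases before to 50 bases after the annotated start, were found for H2-Aa, H2-Eb1, H2-DMa, H2-DMb1 and Ctss among the 8 genes and for H2-DMb2, H2-Oa, H2-Ob and H2-Eb2 among the other class II genes. H2-Ab1, Cd74 and Ciita are named only. The letters TGATTGG, a form of the Y box that NF-Y binds, and GCAAC, letters of the X box that RFX binds, were searched on both strands. TGATTGG stood in 7.82% and GCAAC in 35.2% of all 32851 windows. Bases −140 to −21 from the annotated start are printed 5′ to 3′ for H2-Aa (chr17:34287844-34287963, minus strand) and H2-Eb1 (chr17:34305727-34305846, plus strand) as classical chains, for H2-Ob (chr17:34238765-34238884, plus strand) and H2-DMb2 (chr17:34145109-34145228, plus strand) as chains that fell in every tumor group, and for Ctss (chr3:95526646-95526765, plus strand) as the gene that moved the other way. Capitals mark GCAAC and TGATTGG.
H2-Aa: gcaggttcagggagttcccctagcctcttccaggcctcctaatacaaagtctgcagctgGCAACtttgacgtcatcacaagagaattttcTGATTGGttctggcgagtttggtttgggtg
H2-Eb1: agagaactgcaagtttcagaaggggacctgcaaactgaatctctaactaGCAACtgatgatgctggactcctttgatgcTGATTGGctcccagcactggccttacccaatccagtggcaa
H2-Ob: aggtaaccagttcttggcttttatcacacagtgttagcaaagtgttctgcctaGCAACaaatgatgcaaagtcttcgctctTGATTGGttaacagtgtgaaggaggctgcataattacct
H2-DMb2: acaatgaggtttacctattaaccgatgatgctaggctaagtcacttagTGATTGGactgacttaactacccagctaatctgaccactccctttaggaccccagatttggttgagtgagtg
Ctss: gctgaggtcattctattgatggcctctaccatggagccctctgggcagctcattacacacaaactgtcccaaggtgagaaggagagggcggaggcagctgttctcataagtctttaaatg

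TGATTGG began at position −50 in H2-Aa, −61 in H2-Eb1, −63 in H2-DMb1, −92 in H2-DMb2 and −59 in H2-Ob. GCAAC preceded it on the same strand with 26 bases between them in H2-Aa, 25 in H2-Eb1 and 23 in H2-Ob, and the pair, with at most 40 bases between, stood in 0.183% of all windows. H2-Oa and H2-Eb2 had the pair as well, 26 and 25 bases apart. H2-DMb1 and H2-DMb2 had TGATTGG without the exact letters GCAAC, and neither of the 2 windows of H2-DMa held TGATTGG. A search for exact letters misses boxes spelled otherwise. Both H2-DMa windows, from bases 34122582 and 34125268, lie inside the gene, which is annotated from base 34119541. Whether either holds the promoter in use was not tested. The Ctss window held neither string, nor the bare ATTGG (37.4% of windows) nor TTCNNNGAA, the form that STAT factors bind (8.3% of windows). These are matches of letters in a short window, and binding was not measured.

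The classical chain genes H2-Aa and H2-Ab1, which encode the I-A dimer, and H2-Eb1, which encodes the β chain of I-E, were lower in tumors with the transgene than in normal gland. H2-Aa lay at 319, 340 and 428 CPM in the glands, at 41.6, 104, 104, 105 and 166 CPM in the 5 B1/P/Rbf tumors, and at 26.8, 29.5, 65.0, 105 and 188 CPM in the P/Rbf tumors. No tumor with the transgene reached the lowest gland. In the B1/P tumors H2-Aa lay at 105, 113, 178, 335 and 405 CPM, so that tumors 225070 and 246361 sat within the range of the glands. H2-Ab1 followed the same order, with 239 to 303 CPM in glands, 34.4 to 138 in B1/P/Rbf, 24.9 to 133 in P/Rbf and 90.7 to 334 in B1/P tumors. H2-Eb1 ran from 219 to 284 CPM in glands, 26.3 to 121.3 in B1/P/Rbf, 18.4 to 140 in P/Rbf and 80.1 to 305 in B1/P tumors.

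All 3 chains fell in B1/P/Rbf tumors relative to gland, H2-Aa by 1.80 on the log2 scale (standard error 0.58, adjusted p = 0.0211), H2-Ab1 by 1.40 (standard error 0.53, adjusted p = 0.0454) and H2-Eb1 by 1.81 (standard error 0.59), the last with an adjusted p of 0.0238 by the quasi-likelihood test of edgeR. The B1/P/Rbf calls were lost in 2 of 25 alternatives for H2-Aa, 12 for H2-Ab1 and 5 for H2-Eb1. With a term for the 2 sets of libraries H2-Ab1 and H2-Eb1 did not pass (−2.20 and −2.73, adjusted p = 0.0863 and 0.0621, edgeR). In P/Rbf tumors the 3 chains fell by 2.13, 2.08 and 2.06, with adjusted p = 0.0081, 0.00534 and 0.0117 from edgeR. In B1/P tumors the log2 fold changes were −0.67, −0.41 and −0.52, and none passed (lowest adjusted p = 0.39 from edgeR). The 3 comparisons share the same 3 glands. In bulk tissue, fewer cells of a type and less RNA per cell cannot be told apart.

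**Figure D1:**
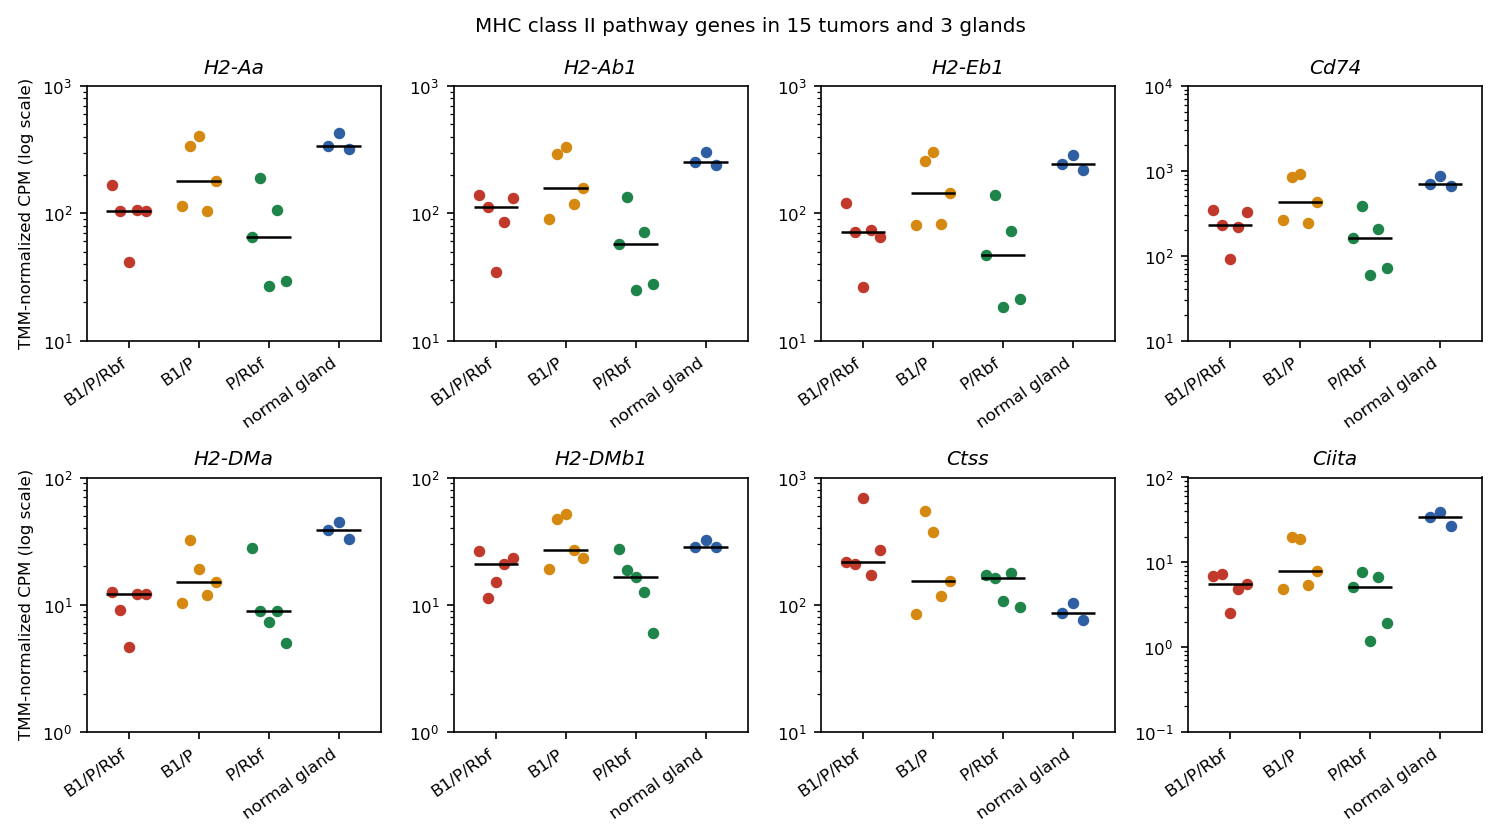
TMM-normalized CPM on a log scale (y axis) of the 8 genes in each library, with points for single mice and black lines for the group medians (5 tumors per tumor group, 3 glands). H2-Aa lay at 319 to 428 CPM in the glands and at 26.8 to 188 CPM in the tumors with the transgene, while Ctss lay at 75.7 to 103 CPM in the glands and reached 685 CPM in B1/P/Rbf tumor 208863.

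Cd74, the invariant chain, was the most abundant of the 8 genes per length in glands, at 526.1 ± 82.0 CPM per kilobase of transcript (SD, n = 3). Its level was 660.4, 691 and 874 CPM in the 3 glands. B1/P/Rbf tumors held 91.0, 217, 227, 328 and 346 CPM and P/Rbf tumors 58.6, 71.2, 159.6, 204 and 389 CPM, all below every gland. B1/P tumors held 242, 261, 426, 838 and 906 CPM and overlapped the glands. Cd74 fell relative to gland by 1.62 in B1/P/Rbf tumors (standard error 0.56, adjusted p = 0.0325) and by 2.07 in P/Rbf tumors (standard error 0.57, adjusted p = 0.00847), both log2 and from edgeR. Cd74 in B1/P tumors had a log2 fold change of −0.47 (adjusted p = 0.55 from edgeR).

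H2-DM was measured through its α chain gene H2-DMa and the β chain gene H2-DMb1, of which H2-DMa alone passed the test against gland. H2-DMa lay at 32.7, 39.0 and 44.5 CPM in glands, and no tumor exceeded the lowest gland. Its levels were 4.66 to 12.6 CPM in B1/P/Rbf, 10.4 to 32.3 in B1/P and 5.00 to 28.0 in P/Rbf tumors. H2-DMa fell by 1.93 in B1/P/Rbf tumors (standard error 0.49, adjusted p = 0.00518) and by 1.74 in P/Rbf tumors (standard error 0.49, adjusted p = 0.00985), and its log2 fold change in B1/P tumors was −1.13 (adjusted p = 0.0838, all edgeR). Without P/Rbf tumor 287842, at 28.0 CPM far above the other 4 of its group at 5.00 to 8.87, the B1/P value was −1.09 with an adjusted p of 0.0306 from edgeR. H2-DMa also passed in B1/P tumors with limma-voom and quantile normalization together (−1.18, adjusted p = 0.0202). In edgeR it passed with only the groups compared (−1.12, adjusted p = 0.045) and without tumor 225070 (−1.46, adjusted p = 0.0302), 4 of 24 alternatives in all.

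H2-DMb1 lay at 28.3, 28.4 and 32.5 CPM in glands, 11.3 to 26.6 CPM in B1/P/Rbf, 19.1 to 51.2 in B1/P and 6.03 to 27.6 in P/Rbf tumors. Its log2 fold changes of −0.62, 0.17 and −0.87 relative to gland did not pass (adjusted p = 0.254, 0.779 and 0.105 from edgeR), except that the P/Rbf value without tumor 287842 was −1.06 (adjusted p = 0.0491). Its paralog H2-DMb2 lay at 48.7 to 59.2 CPM in glands and at 0.159 to 5.04 CPM over the 15 tumors. Per length, H2-DMb1 stood at 0.557 to 0.592 times H2-DMb2 in the glands and at 8.16 to 122 times in the tumors. Of the 50-base windows of the H2-DMb1 transcript 27.2% also occur in H2-DMb2, so that RSEM had to divide some reads between them, and how this division affected the levels was not tested.

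Ctss, the cathepsin that trims the invariant chain, was the single gene of the 8 that rose. It lay at 75.7, 86.7 and 103 CPM in glands and at 171, 209, 217, 269 and 685 CPM in B1/P/Rbf tumors, each above every gland. B1/P tumors held 84.5, 116, 153, 374 and 548 CPM and P/Rbf tumors 95.8, 106, 162, 173 and 177 CPM, and both overlapped the glands through 1 tumor. Ctss rose by 1.81 on the log2 scale in B1/P/Rbf tumors (standard error 0.58, adjusted p = 0.0218) and by 1.53 in B1/P tumors (standard error 0.57, adjusted p = 0.0491), and stood at 0.69 in P/Rbf tumors (adjusted p = 0.343, edgeR). Without B1/P/Rbf tumor 208863 the first value was 1.29 with an adjusted p of 0.0615, and without glands 330154 or 330156 the adjusted p was 0.0704 or 0.0861 (edgeR). With a term for the 2 sets of libraries the values were 0.49 and 0.60 (adjusted p = 0.707 and 0.498), and the B1/P call was lost in 17 of 25 alternatives, with 1.04 (adjusted p = 0.13) without B1/P tumor 225070.

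Tumor 208863, with partial loss of Brca1, paired the highest Ctss with the lowest Cd74 of the B1/P/Rbf group. Per length, Ctss stood at 0.119 to 0.131 times Cd74 in the glands. The ratio was 0.337 to 0.680 in B1/P tumors, 0.434 to 1.89 in P/Rbf tumors and 0.652 to 0.960 in 4 B1/P/Rbf tumors, with 7.84 in tumor 208863. Every tumor thus had more Ctss for its Cd74 than any gland.

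Ciita, the co-activator of the pathway, had the lowest level of the 8 per length in glands, at 5.51 ± 1.01 CPM per kilobase (SD, n = 3). It lay at 26.7, 33.9 and 38.7 CPM in glands and at 2.51, 4.84, 5.52, 6.89 and 7.37 CPM in the 5 B1/P/Rbf tumors. The P/Rbf tumors held 1.19, 1.94, 5.12, 6.71 and 7.60 CPM of Ciita, and the B1/P tumors 4.86, 5.44, 7.95, 19.0 and 19.99 CPM. All 15 tumors were below the lowest gland. Ciita fell by 2.61 in B1/P/Rbf (standard error 0.58, adjusted p = 0.00205), by 2.87 in P/Rbf (standard error 0.58, adjusted p = 0.000972) and by 1.53 in B1/P tumors (standard error 0.57, adjusted p = 0.047), on the log2 scale and from edgeR. The B1/P call was lost in 13 of 24 alternatives, with the adjusted p at its highest, 0.138, without gland 330155. Per length, Ciita stood at 0.0225 to 0.0270 times H2-Ab1 in the glands and at 0.00844 to 0.0190 times in the tumors.

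Counted together, 7 of the 8 genes were called in B1/P/Rbf tumors against gland, 6 lower and Ctss higher, where 37.0% of all tested genes were called. In P/Rbf tumors 6 of 8 were called, all lower, beside 37.7% of all genes, and H2-DMb1 and Ctss did not pass. In B1/P tumors 2 of 8 were called, Ciita lower and Ctss higher, beside 33.8% of all genes. The median log2 fold change of the 8 genes was −1.71, −2.06 and −0.50 in B1/P/Rbf, P/Rbf and B1/P tumors, against 0.05, 0.05 and 0.12 over all genes tested.

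The count in P/Rbf tumors stayed between 6 and 7 when single libraries were left out. For B1/P/Rbf tumors it was 3 without tumor 208863, gland 330154 or gland 330155 and 4 without gland 330156. H2-Ab1 and Cd74 also lost their calls there without tumor 208857 or 209490, and H2-Ab1 alone without tumor 248662, 287842 or 287822. Ciita and H2-DMa passed in B1/P/Rbf tumors under all 24 alternatives that gave them a value, whereas H2-Ab1 passed in 13 and Cd74 in 16 of 25. Without TMM the median of all genes moved to 0.42, 0.33 and 0.47 in B1/P/Rbf, P/Rbf and B1/P tumors, and 3, 6 and 1 of the 8 genes passed. In B1/P tumors the count was 0 without B1/P/Rbf tumor 208855, 208857 or 210906 or without any 1 gland, and 1 without tumor 209490, 225068, 246361, 255232, 248662, 287845, 290860, 287822 or 290845. Exact two-sided permutation tests, which cannot go below p = 0.0179 for 5 against 3 samples, gave p = 0.0179 for Ciita and H2-DMa in both groups with the transgene and p = 0.0357 for both genes in B1/P tumors, each 0.0902 after adjustment over the 48 permutation tests run.

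**Figure D2:**
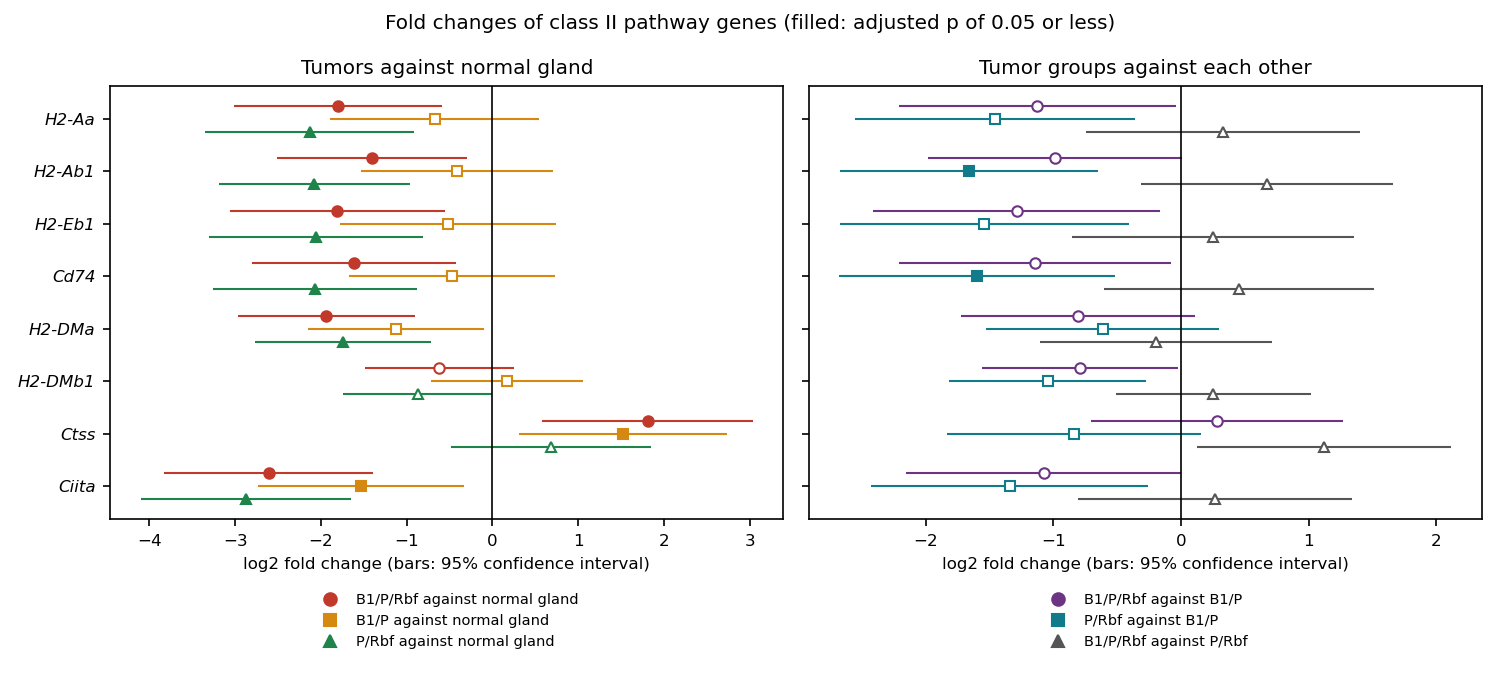
Log2 fold changes (x axis) of the 8 genes (y axis) with 95% confidence intervals from edgeR, tumors against normal gland on the left and tumor groups against each other on the right. Filled symbols have an adjusted p of 0.05 or less: 7, 2 and 6 genes in B1/P/Rbf, in B1/P and in P/Rbf tumors against gland, and Cd74 and H2-Ab1 in P/Rbf against B1/P tumors.

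The comparison of tumors with each other asked how class II transcripts differed with Brca1 deletion and with the T121 transgene. P/Rbf and B1/P tumors differ in both, so their comparison cannot separate the 2 factors. Against B1/P tumors, P/Rbf tumors had lower H2-Ab1, which fell by 1.66 (standard error 0.48, adjusted p = 0.0232), and lower Cd74, which fell by 1.60 (standard error 0.51, adjusted p = 0.0372), both log2 and from edgeR. These are 2 of 8 genes, beside 19.2% of all tested genes called in this comparison. H2-Aa, H2-Eb1, H2-DMb1 and Ciita had log2 fold changes of −1.46, −1.54, −1.04 and −1.34 with adjusted p from 0.0528 to 0.0754 in edgeR. H2-DMa and Ctss were at −0.61 and −0.84 (adjusted p = 0.329 and 0.216). The median of the 8 genes was −1.40, against −0.05 over all genes.

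All 8 genes overlapped between P/Rbf and B1/P tumors. For H2-Ab1, B1/P tumors 225070, 246361 and 248662 were above every P/Rbf tumor, and P/Rbf tumors 290860 and 290845 were lowest, at 24.9 and 27.8 CPM. For Cd74 the same 3 B1/P tumors were above every P/Rbf tumor. The number of genes called was 0 without tumor 246361 or 290845, 1 without tumor 225070, 290860 or 287822 or any 1 gland, 4 without tumor 255232 or 287845 and 5 without tumor 225068. H2-Eb1 was called as well without tumor 208863, and H2-DMb1 without tumor 248662. Without tumor 287842 H2-DMa and H2-DMb1 were called and Cd74 was not. With a term for the 2 sets of libraries none passed, and the log2 fold changes were −1.13 for H2-Ab1 and −0.92 for Cd74 (adjusted p = 0.226 and 0.366, edgeR).

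Set against B1/P, the B1/P/Rbf tumors had no gene of the 8 past the threshold in edgeR, beside 16.7% of all tested genes, and none in DESeq2 or limma-voom. At an unadjusted p under 0.05 there were 4, H2-Aa, H2-Eb1, Cd74 and H2-DMb1. Their log2 fold changes were −1.12 (95% confidence interval −2.21 to −0.04), −1.29 (−2.41 to −0.17), −1.14 (−2.21 to −0.08) and −0.79 (−1.56 to −0.02). Ctss was at 0.28 (−0.70 to 1.27), and at −0.23 without tumor 208863. The median of the 8 genes was −1.03, against −0.06 over all genes, and 7 of the 8 values were negative.

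B1/P/Rbf and P/Rbf tumors, which differ by Brca1 and share the transgene, also had no gene of the 8 past the threshold in edgeR, DESeq2 or limma-voom, beside 0.281% of all tested genes in edgeR. Ctss alone had an unadjusted p under 0.05, with a log2 fold change of 1.12 (95% confidence interval 0.12 to 2.12, adjusted p = 0.253 from edgeR). Its levels in 4 of 5 B1/P/Rbf tumors were above every P/Rbf tumor. The interval was −0.74 to 1.41 for H2-Aa, −0.31 to 1.66 for H2-Ab1 and −0.60 to 1.51 for Cd74. With a term for the 2 sets of libraries the signs turned, to −0.20 for Ctss, −0.68 for H2-Aa, −0.12 for H2-Ab1 and −0.55 for Cd74, and none passed.

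Within each tumor group the 8 genes ranged more widely from mouse to mouse than among the glands. The highest over the lowest sample was 3.99 in B1/P/Rbf, 3.86 in B1/P and 7.01 in P/Rbf tumors for H2-Aa, and 1.34 in glands. Such a ratio tends to grow with the number of samples, and 5 tumors per group stood beside 3 glands. In P/Rbf tumors 287845 was highest and 290860 lowest for H2-Aa, H2-Ab1, H2-Eb1, Cd74 and Ciita, whereas 287842 was highest and 290845 lowest for H2-DMa and H2-DMb1. Over the 18 samples, deviations from the group mean of log2 CPM correlated at r = 0.997 between H2-Aa and H2-Eb1, 0.969 between H2-Aa and H2-Ab1, 0.984 between H2-Aa and Cd74 and 0.945 between Cd74 and Ciita. H2-DMa and H2-DMb1 correlated at 0.784 with each other and at 0.578 and 0.576 with H2-Aa, and Ctss at 0.37 with H2-Aa. These values are descriptions over libraries that share their depth and tissue make-up.

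**Figure D3:**
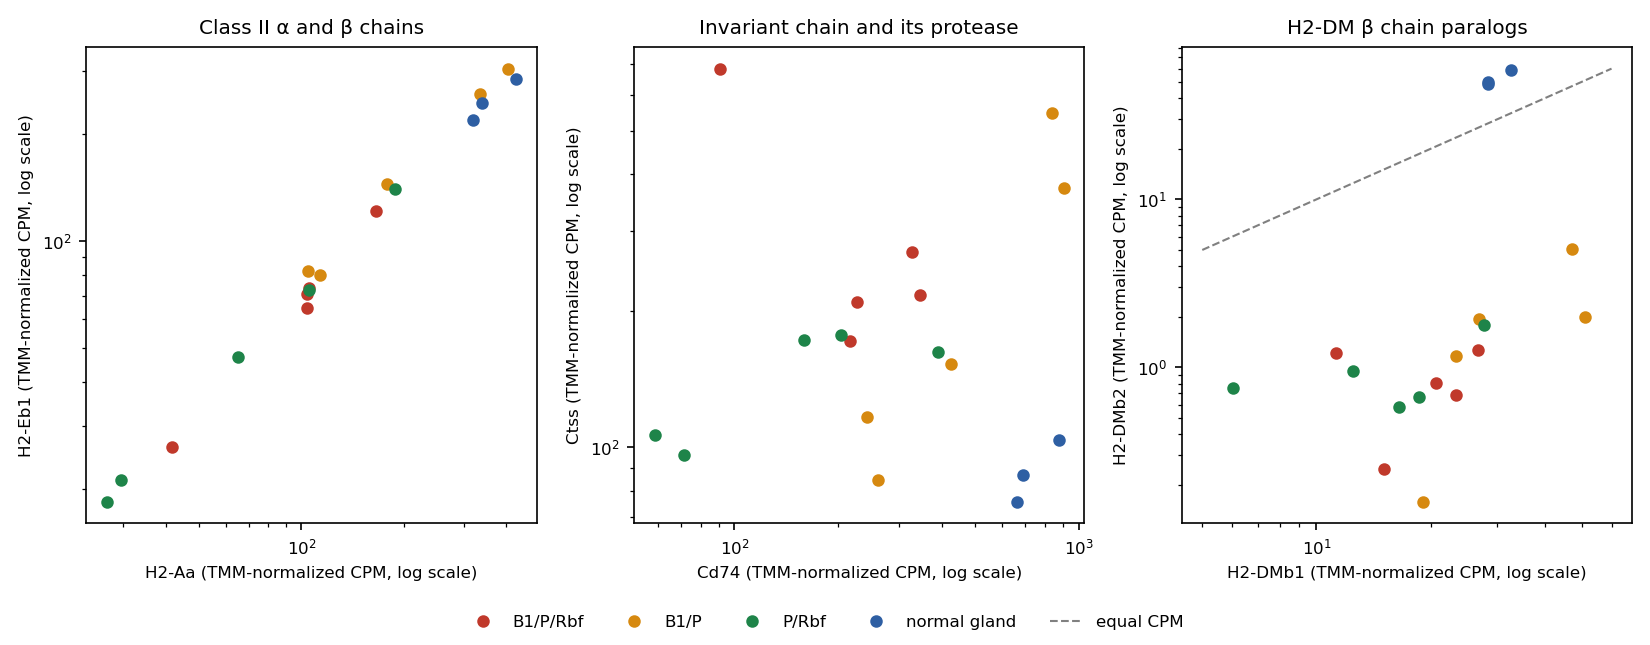
Each point is 1 library, with TMM-normalized CPM on log axes: H2-Eb1 against H2-Aa (left), Ctss against Cd74 (middle) and H2-DMb2 against H2-DMb1 (right, dashed line at equal CPM). H2-Eb1 followed H2-Aa over its whole range of 26.8 to 428 CPM. Ctss followed Cd74 less closely (r = 0.385 between deviations from the group mean), with B1/P/Rbf tumor 208863 farthest off. H2-DMb2 was above H2-DMb1 in the 3 glands and below it in the 15 tumors.

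Genes outside the 8 whose deviations were most like the mean standardized level of the 8 were taken from all 19186 genes tested. The 10 nearest had r from 0.895 to 0.927, in the order Kmo, Arhgap27os3, Plcb2, Tcrg-C1, Rnase6, Wdfy4, Hhex, Slc27a4, Itgb7 and Kcnk6. Kmo, an enzyme of tryptophan breakdown, lay at 7.28 to 12.3 CPM in glands and at 0.136 to 2.72 CPM in tumors. Wdfy4, which dendritic cells need for cross-presentation, lay at 30.2 to 49.3 CPM in glands and 2.89 to 27.2 CPM in tumors. Slc27a4, a fatty acid transport protein, lay at 45.1 to 49.5 CPM in glands and 29.3 to 67.5 CPM in tumors. Among the 8 genes Cd74 was nearest to their mean, at 0.951, and Ctss farthest, at 0.566.

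The remaining class II chains were lower in every tumor than in any gland. H2-DMb2, H2-Oa and H2-Ob (the chains of H2-DO, which restrains H2-DM) and the β chain gene H2-Eb2 fell in all 3 tumor groups, 4 of 4 tested beside 37.0, 33.8 and 37.7% of all genes called, with medians of −5.90, −5.77 and −6.13 on the log2 scale in B1/P/Rbf, in B1/P and in P/Rbf tumors. H2-Ob lay at 69.3 to 95.2 CPM in glands and at 0.0276 to 1.303 CPM in tumors, with log2 fold changes of −6.69, −6.89 and −6.71 (adjusted p = 7.66e-06, 8.7e-06 and 7.61e-06 from edgeR). H2-Oa lay at 14.7 to 20.5 CPM in glands and at 0.0253 to 1.07 in tumors. H2-Ea-ps, the inactive gene of the I-E α chain in this strain, had 0 counts in all 18 libraries, which allows up to 0.0794 to 0.108 CPM per library, at 3 counts. Between tumor groups the log2 fold changes of the 4 ran from −1.28 to 0.62, with adjusted p of 0.158 or more (edgeR).

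Of 10 genes of lysosomal antigen processing, 3 fell and none rose in B1/P/Rbf tumors, 3 fell and 2 rose in B1/P tumors, and 3 fell and none rose in P/Rbf tumors, all against gland, beside 37.0, 33.8 and 37.7% of all genes called. Cst3, cystatin C, an inhibitor of cathepsins, fell by 2.00, 1.77 and 2.62 (adjusted p = 0.00014, 0.000505 and 1.08e-05 from edgeR). Cst7, another cystatin, fell by 2.45 in B1/P/Rbf tumors (adjusted p = 0.0159), Lgmn, a lysosomal endopeptidase, rose by 1.61 in B1/P tumors (adjusted p = 0.00449), and March1, a ubiquitin ligase that removes class II from the surface, fell by 1.96 in P/Rbf tumors (adjusted p = 0.0101, all edgeR). In P/Rbf against B1/P tumors Lgmn and Cst3 fell, by 1.02 and 0.85 (adjusted p = 0.033 and 0.0461 from edgeR), and the other 8 were not called, beside 19.2% of all genes called.

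Few genes of the factors that carry Ciita and of the interferon gamma pathway passed the test. Of 13 tested, 1 rose and 1 fell in B1/P/Rbf and in B1/P tumors and 2 rose in P/Rbf tumors against gland, beside 37.0, 33.8 and 37.7% of all genes called, with median log2 fold changes of 0.22, 0.02 and 0.34. Nfya, a subunit of NF-Y, rose in each, by 1.06, 1.42 and 1.07 (adjusted p = 0.00385, 0.000506 and 0.00341 from edgeR). Ifngr1, an interferon gamma receptor chain, fell by 1.10 in B1/P/Rbf tumors (adjusted p = 0.0245), and Jak1, a kinase of the same receptor, by 0.94 in B1/P tumors (adjusted p = 0.00808). Irf1, a factor induced by interferon gamma, rose by 1.65 in P/Rbf tumors against gland (adjusted p = 0.00634) and by 1.75 against B1/P tumors (adjusted p = 0.00387, all edgeR), where H2-Ab1 and Cd74 were lower. Rfxank, an RFX subunit, fell by 0.77 in P/Rbf and by 0.73 in B1/P/Rbf against B1/P tumors (adjusted p = 0.0178 and 0.025 from edgeR). Ifng itself was too low to be tested, at no more than 0.316 CPM in any sample.

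Of 8 genes for costimulation and for receptors of class II, 5, 4 and 6 fell and none rose in B1/P/Rbf, in B1/P and in P/Rbf tumors against gland, beside the same 37.0, 33.8 and 37.7% of all genes. Icos, a T cell costimulatory receptor, fell by 4.58, 3.90 and 4.80 (adjusted p = 0.00117, 0.00369 and 0.000843 from edgeR). Its ligand Icosl fell by 2.10, 1.56 and 1.89 (adjusted p = 0.000466, 0.00509 and 0.00106), and Cd28 fell by 5.05 in P/Rbf tumors (adjusted p = 0.000567, edgeR). Cd4, the T cell co-receptor that binds class II, lay at 35.2 to 59.7 CPM in glands and at 0.101 to 17.4 CPM in tumors. Between tumor groups the log2 fold changes of the 8 ran from −1.76 to 1.76, with adjusted p of 0.0647 or more (edgeR).

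Markers of lymphoid cells were lower in all 3 tumor groups, also in B1/P tumors, where 1 of the 8 class II pathway genes fell, and are given beside the 37.0, 33.8 and 37.7% of all genes called in B1/P/Rbf, in B1/P and in P/Rbf tumors. Their part in the class II results was not tested. All 10 B cell markers fell in each tumor group, with median log2 fold changes of −7.32 in B1/P/Rbf, −8.43 in B1/P and −7.90 in P/Rbf tumors, and their summed level was 508 to 694 CPM in glands against 2.21 to 15.4 CPM in tumors. Ms4a1, a defining marker of B cells, lay at 48.6 to 61.9 CPM in glands and at no more than 0.782 CPM in any tumor, with 0 in 1 B1/P tumor. T cell markers fell in 9, 10 and 10 of 10 cases in B1/P/Rbf, in B1/P and in P/Rbf tumors, with sums of 357 to 543 CPM in glands and 3.34 to 116 in tumors. Lymph node stroma and high endothelial venule markers fell in 4, 5 and 5 of 6 cases, with sums of 667 to 1033 CPM in glands and 0.759 to 168 in tumors. All 8 adipocyte markers fell in each tumor group as well. Of 8 pan-leukocyte markers 5, 4 and 7 fell, and of 6 endothelial markers 3, 3 and 5 fell, with none higher. Of 8 epithelial markers 4, 4 and 6 rose and none fell. Of 8 fibroblast markers 1 fell in B1/P/Rbf, 4 rose in B1/P and 1 fell in P/Rbf tumors. B cell, T cell and lymph node transcripts were thus high in the same glands as the class II genes, and class II RNA of lymphoid cells and of the other gland cells cannot be told apart in these libraries.

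Myeloid markers are given beside the 37.0, 33.8 and 37.7% of all genes called in B1/P/Rbf, in B1/P and in P/Rbf tumors against gland. Of 10 dendritic cell markers 6, 6 and 8 fell and Itgax rose in B1/P/Rbf, in B1/P and in P/Rbf tumors, and Flt3, a growth factor receptor of dendritic cells, lay at 7.38 to 13.9 CPM in glands and at 0.127 to 2.62 in tumors. Their summed level was 167 to 238 CPM in glands, 48.9 to 88.7 in B1/P/Rbf, 112 to 323 in B1/P and 59.1 to 74.2 in P/Rbf tumors. Fscn1 made up most of the highest B1/P sum, at 291 CPM in tumor 255232, while Xcr1, Clec9a and Siglech lay at no more than 1.33 CPM in any B1/P tumor and at 2.84 to 8.80 CPM in glands. Of 10 macrophage markers 3 rose in B1/P/Rbf and 7 in B1/P tumors with none lower, and 2 rose and Cd163 fell in P/Rbf tumors. Adgre1, which encodes F4/80, lay at 6.32 to 10.6 CPM in glands and 10.7 to 74.5 CPM in tumors, above every gland in each of the 15 tumors, and was called higher in B1/P/Rbf and B1/P tumors but not in P/Rbf tumors.

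B1/P tumors 225070 and 246361 had the highest H2-Aa, H2-Ab1, H2-Eb1 and Cd74 of their group. These tumors also had its highest summed macrophage, leukocyte, fibroblast, B cell, T cell and endothelial markers. The highest dendritic cell, lymph node, epithelial and adipocyte sums of the group were in other tumors. Adgre1 was 74.5 and 63.1 CPM and the pan-leukocyte marker Ptprc 113 and 109 CPM there, against 22.5 to 31.2 and 19.5 to 23.4 CPM in the other 3. The fibroblast sum was 12808 and 6245 CPM, against 2618 to 3078 CPM. Deviations of Cd74 correlated at r = 0.767 with the summed macrophage markers, 0.723 with B cell, 0.652 with T cell, 0.577 with endothelial, 0.557 with adipocyte, 0.404 with leukocyte, 0.343 with fibroblast, 0.262 with dendritic cell and 0.0804 with epithelial markers, and those of Ctss at 0.387 with macrophage and 0.744 with leukocyte markers, a description over 18 libraries. In P/Rbf against B1/P tumors 2 of 10 macrophage markers (Mrc1 and Cd163) and 1 of 8 leukocyte markers (Itgb2) were called, all lower, as were 4 of 8 fibroblast markers (Col3a1, Pdgfra, Pdgfrb and Fbln1), the adipocyte marker Fabp4 and the dendritic cell markers Itgax and Fscn1. Batf3 and 4 of 8 epithelial markers were higher, and 19.2% of all genes were called. Their part in the lower H2-Ab1 and Cd74 was not tested.

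**Figure D4:**
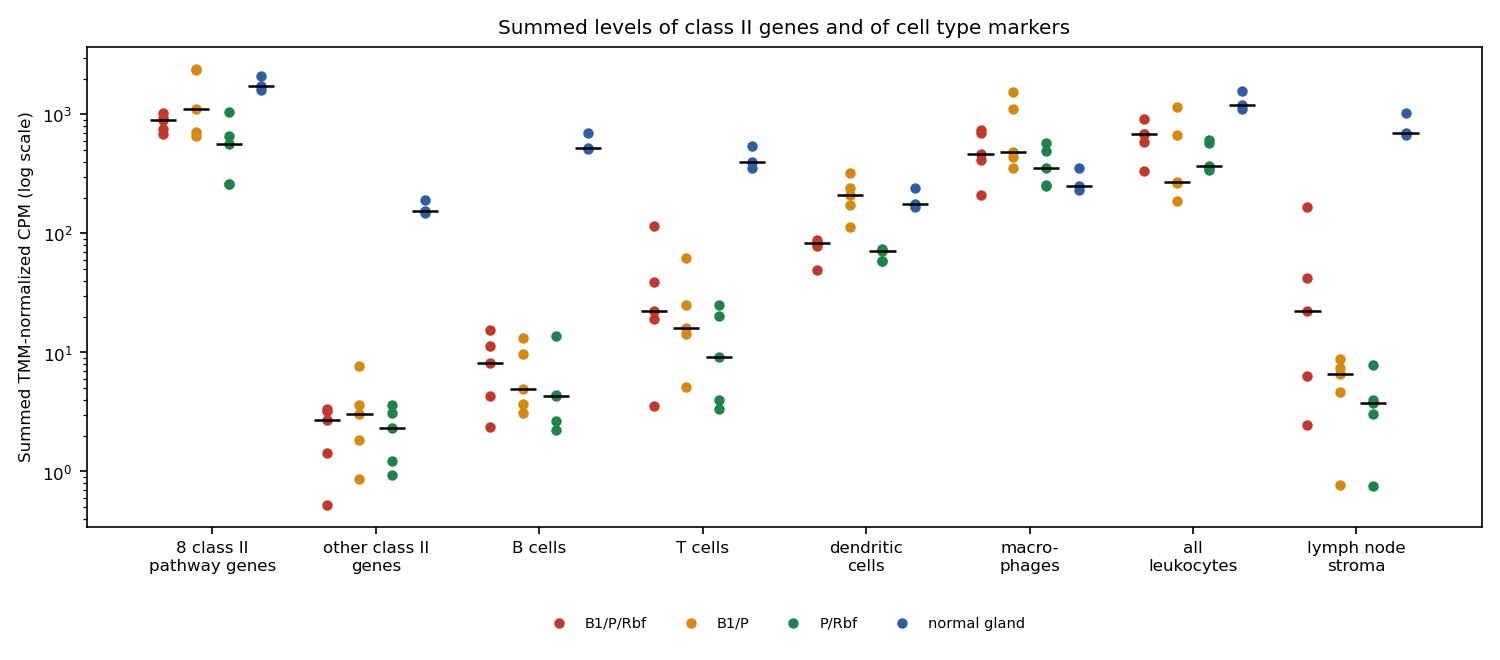
Summed TMM-normalized CPM on a log scale (y axis) of the 8 class II pathway genes, the other class II genes and marker lists of immune cells, with a point for each library and black lines for group medians. The B cell sum lay at 508 to 694 CPM in the 3 glands and at 2.21 to 15.4 CPM in the 15 tumors, while the macrophage sum overlapped between them.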

How the data were processed

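RNA of 15 tumors and 3 normal glands was sequenced by the authors with a stranded mRNA kit in paired-end mode. Per the methods and the submitters' processing notes, reads were trimmed with cutadapt 1.18 and quantified with RSEM 1.3.0. The deposited values are RSEM expected counts per gene, without normalization, and 5.61% of them are not whole. The methods name a human reference, whereas all 55450 identifiers match the mouse annotation GENCODE M21 on GRCm38, which was used for positions.

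Counts were rounded, scaled by TMM and filtered with filterByExpr (minimum count 10), which left 19186 genes. All 18 samples were fitted together with edgeR 4.0.16 (R 4.3.3, quasi-likelihood test, two-sided, group as the only term), with Benjamini-Hochberg adjustment over all genes tested, and genes were called at an adjusted p of 0.05 or less. A prior count of 2 was used for log2 CPM. Exact permutation tests of single genes took every split of the samples of the 2 groups (Python 3.11.15). Alternatives were DESeq2 1.42.0 and limma 3.58.1. The limma fits used voom with quantile normalization, with and without the study's filter of log2 CPM 6 in 6 samples, which left 4551 genes. Further alternatives were no TMM, no filter (32809 genes), only the groups compared, a term for 2 sets of libraries, and leaving out each library. Replicates are separate mice.

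The members and lists were chosen with earlier results of these data known. Named genes were the 8 members and, from each pathway list, those with the lowest adjusted p in a comparison. Markers named beside them were chosen after their values were seen.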

Additional observations from a re-analysis of the deposited data

Results flagged for a closer look

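Within the groups of 5 tumors, 24 sets of values (8 genes in 3 groups) were examined for a sample far from the others, with a gap to the nearest sample above 0.71 of the range. On the CPM scale 2 met this. Chance alone gives such a gap for about 1 in 20 sets if the values follow a normal distribution, which was not checked for CPM. H2-DMa in P/Rbf tumor 287842 was 27.96 CPM, with a gap of 0.832 of the range. Ctss in B1/P/Rbf tumor 208863 was 685.4 CPM, with a gap of 0.809. The rule was first run on log2 CPM, where 0 sets met it and the same gaps were 0.668 and 0.673, and the CPM scale was taken afterwards.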

How the results depend on the processing

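No paired analysis was possible because the replicate numbers are those of single mice and no number is shared between groups. With limma-voom, quantile normalization and the study's filter together, genes called were 632 for B1/P/Rbf against B1/P, 8 for B1/P/Rbf against P/Rbf, 652 for P/Rbf against B1/P, and 1207, 990 and 1088 for B1/P/Rbf, for B1/P and for P/Rbf tumors against gland. With only the groups compared they were 2039, 1 and 1507 between tumor groups. With a term for library sets they were 5 for B1/P/Rbf against P/Rbf, 2009 for P/Rbf against B1/P and 3875 for B1/P/Rbf against gland. For B1/P/Rbf against P/Rbf DESeq2 called 1026, and limma-voom with quantile normalization called 26.

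Of the 8 genes, P/Rbf against B1/P gave 6 calls with DESeq2 and 5 with limma-voom and quantile normalization together. It gave 5 without TMM, and 0 with only the groups compared or with library sets. B1/P/Rbf against gland gave 4 with limma-voom, quantile normalization and the study's filter together, and 5 of the 8 genes pass that filter. It gave 3 without TMM or with library sets. With library sets the folds of H2-Ab1, H2-Eb1 and Cd74 were larger (−2.20, −2.73 and −2.62) and did not pass. Without TMM the folds of these 3 genes were smaller (−1.02, −1.44 and −1.24) and did not pass. B1/P against gland gave 0 with limma-voom, quantile normalization and the study's filter together. It also gave 0 with every gene counted in edgeR, and 1 without TMM or with library sets. The cause was not tested.

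Leaving out 1 library gave 9 to 131 genes called for B1/P/Rbf against P/Rbf, the highest without tumor 209490. For the 8 genes it gave 0 to 5 for P/Rbf against B1/P, 3 to 7 for B1/P/Rbf against gland and 0 to 2 for B1/P against gland.

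Reversed signs were all in values that did not pass. With library sets B1/P/Rbf against P/Rbf gave H2-Aa −0.68, H2-Ab1 −0.12, H2-Eb1 −0.67, Cd74 −0.55, Ciita −0.86, H2-DMb1 −0.39 and Ctss −0.20. Ctss was −0.11 for B1/P/Rbf and 0.087 for P/Rbf against B1/P, and H2-DMb1 −0.25 for B1/P against gland. Over the fits that each left out 1 library, Ctss ran from −0.23 (without 208863) to 0.77 for B1/P/Rbf against B1/P, H2-Eb1 from −0.025 (without 208855) to 0.84 and H2-DMa from −0.39 to 0.41 (without 287842) for B1/P/Rbf against P/Rbf, and H2-DMb1 from −0.030 (without 246361) to 0.32 for B1/P against gland.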
